A study of Homo sapiens with 30 samples.

Results

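The regions described here are weak iCLIP peaks that lay inside 3'UTRs, well away from both of their ends. A peak was counted when its score was 3 to 9, its centre fell in the 3'UTR of the canonical transcript of a protein-coding gene on the same strand, and that centre was more than 100 nt after the stop codon and more than 100 nt before the 3' end. The score is the read support of a peak, summed by the authors over replicates, and 3 was the lowest score in the lists. The rule took 18173 of the 47384 peaks of 3 lists: 5177 of 14334 for full-length LARP6 (FL), 6937 of 17180 for ΔNTR and 6059 of 15870 for ΔCTR. They are called weak peaks below. Because the score chose them, their scores and their number are given as a description and were not tested.

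All iCLIP samples came from U-87 MG, an established human glioblastoma line, in lines stably transduced with a doxycycline-inducible myc-tagged LARP6 and induced at 60 ng/mL for 24 h, with anti-myc beads used for the pull-down. FL carried the whole protein, ΔNTR lacked the N-terminal region ahead of the La-module, and ΔCTR lacked the C-terminal region behind it. ΔLa-module lacked the folded La-module, ΔNTD lacked the N-terminal region and the La-module together, and parental U-87 MG cells without a variant were the negative control. Each of the 6 groups had 3 iCLIP samples and 1 long RNA input library (PE150), and the lines still carried their own endogenous LARP6. The study asked what each region of LARP6 contributes to RNA binding in living cells. Each list pools 3 replicates from which parental peaks were already subtracted, so a difference between lists cannot be set against replicate spread. The authors called peaks in each replicate with at least 3 counts per peak, then merged them and summed the scores. A score below 6 therefore rests on 1 replicate, and a weak peak with a higher score can do so too. The 95% intervals below cover counting error only, or the spread over genes where stated.

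LARP6 belongs to the La-related proteins, which share a La-module, a pair of folded RNA-binding domains, and it is best known for binding a stem-loop in the 5'UTR of type I collagen mRNAs. The 3'UTR carries much of the information that sets the stability, translation and localisation of an mRNA, and many RNA-binding proteins meet it through short, degenerate sequences. In iCLIP, ultraviolet light joins protein to RNA where they touch, and reverse transcription stops at that nucleotide, so that peaks mark crosslink sites. Ultraviolet crosslinking favours uridine.

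The sequences below show what such sites look like. Each is 30 nt of mRNA around the peak centre, written 5′ to 3′ as DNA letters from the GENCODE transcript, with runs of 4 or more pyrimidines (C or T) in capitals. Coordinates are those of the peak on GRCh38. The first set holds all 6 weak peaks in the 3'UTR of CTNNA1, which encodes the adhesion protein α-catenin, ordered from the stop codon (plus strand, 3'UTR of 945 nt). CTNNA1 was taken as an example and was not found by a ranking. The authors had picked a segment of this 3'UTR for binding assays, for its focused FL binding and weaker interactions seen in ΔNTR alone. FL had no weak peak there.
CTNNA1, ΔNTR, chr5:138934199-138934215, score 7: acagggaaatgggcagactgaaccagtcca
CTNNA1, ΔNTR, chr5:138934221-138934244, score 4: tccaggtggtgaaTTTTCCaagaacatagt
CTNNA1, ΔNTR, chr5:138934247-138934280, score 6: taagttgattaaaaatgCTTTTagaatgca
CTNNA1, ΔCTR, chr5:138934263-138934281, score 3: ttaaaaatgCTTTTagaatgcaggagccta
CTNNA1, ΔNTR, chr5:138934294-138934328, score 6: gtaTTTTTTgtatgcttaaataaaaataaa
CTNNA1, ΔCTR, chr5:138934344-138934370, score 3: gaaTCCCacattagcttgttagtaatgctc

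In FL the same 3'UTR carried a peak with a score of 305 whose centre lay 90 nt after the stop codon and one with a score of 18 at 122 nt. ΔNTR had a score of 97 at 87 nt, and its 4 weak peaks followed at 118, 144, 175 and 222 nt. ΔCTR had scores of 355 and 20 at 90 and 118 nt, and its 2 weak peaks lay at 183 and 268 nt. The first 2 weak ΔNTR peaks overlapped the FL peak at 122 nt and the other 2 lay 22 and 69 nt beyond it. ΔNTR also had peaks with scores of 4 and 3 at 33 and 65 nt, which were too near the stop codon to be counted.

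The second set shows sites at which a weak peak of each of the 3 lists overlapped the other two, the 6 with the highest summed score (ties by symbol). Scores are given in the order FL, ΔNTR, ΔCTR, and the sequence and coordinates are those of the FL peak.
ZBTB4, minus strand, chr17:7461094-7461126, scores 9, 8 and 8: CTCTTTCTgCCTCTacatatggcctaTTCT
HNRNPA2B1, minus strand, chr7:26192030-26192090, scores 8, 8 and 8: agtggTCTTTgtaagagtgtagaagcattc
GPC1, plus strand, chr2:240466474-240466495, scores 8, 6 and 9: CTTTTaaTTTTgtatgaggTCCTCaggtca
NACC2, minus strand, chr9:136006707-136006742, scores 9, 6 and 8: tgttaCTTTTTagccatggctgacattgta
SERINC1, minus strand, chr6:122444903-122444926, scores 9, 5 and 9: ctggcatgaattagaTTTTactgcttgtca
CAPRIN1, plus strand, chr11:34100216-34100267, scores 9, 5 and 8: cttggaTTTTgctgtattgtcacctaaatt

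ZBTB4 encodes a zinc finger transcription factor, HNRNPA2B1 an hnRNP protein, GPC1 the proteoglycan glypican-1 and CAPRIN1 an RNA-binding protein of stress granules. The ZBTB4 window had 23 pyrimidines of 30 and the FL window of HNRNPA2B1 13. The ΔNTR and ΔCTR windows at the HNRNPA2B1 site, centred a little further 5′, had 18 and 20. The third set gives, for each list, the first 2 by symbol of the weak peaks with a score of 9 that overlapped no peak of the other two lists, shown as the best supported of the peaks found in 1 list. At this score such private peaks were a minority, 8.8% in FL, 11.3% in ΔNTR and 21.1% in ΔCTR.
CBX6, FL, minus strand, chr22:38862423-38862461: gcacttgcccaaggcggCCTCTTTgggacg
CHP1, FL, plus strand, chr15:41281546-41281567: attgctaaaaaataccactgcaaagtgatg
CORO1C, ΔNTR, minus strand, chr12:108646310-108646378: gggtatttgCCCTgggtgaTCCTgTTTCCC
EMP1, ΔNTR, plus strand, chr12:13216337-13216372: aTTCTaTTTCTCTatgtttaTTCTagttaa
ABL2, ΔCTR, minus strand, chr1:179101113-179101138: ctgggttgaTTTTgcatgattattgaacta
ABLIM3, ΔCTR, plus strand, chr5:149260282-149260302: atgTCTTTTCaCTTTCCTgaCCCTTTagaa

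These windows held 12 (CHP1) to 21 (EMP1 and ABLIM3) pyrimidines of 30.

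Weak peaks were the usual form of signal inside 3'UTRs. They made up 84.9% of the FL peaks there, against 90.8% for ΔNTR and 83.5% for ΔCTR, and held 20.2%, 29.6% and 20.6% of the summed score of their list. Strong peaks, with a score of 10 or more, numbered 919, 706 and 1199 and held 27.0%, 17.1% and 30.4% of it. The cut between the groups was not a natural gap. FL had 125 peaks at a score of 9 and 109 at 10, ΔNTR 115 and 98, and ΔCTR 152 and 120. The lowest score was the most common, with 58.4% of FL, 56.8% of ΔNTR and 57.3% of ΔCTR weak peaks at 3. Weak peaks were narrow, with a median width of 23, 24 and 23 nt against 38, 41 and 38 nt for strong ones.

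ΔNTR had 1.34 times as many weak peaks as FL (95% exact binomial interval 1.29 to 1.39) and ΔCTR 1.17 times (1.13 to 1.21). The variants differed in what went with this. ΔNTR had fewer strong peaks inside 3'UTRs than FL, at a ratio of 0.768 (0.695 to 0.848), and its summed list score was lower, 92958 against 102788. ΔCTR had more strong peaks, at 1.30 (1.20 to 1.42), and a summed list score of 118751. The ΔNTR ratio was 1.30 at a score of 3, 1.44 at 4, 1.66 (1.45 to 1.89) at 5 and 1.42 at 6. It was 1.13 (0.942 to 1.35) at 7, 1.22 (1.00 to 1.501) at 8 and 0.920 (0.708 to 1.19) at 9. The ΔCTR ratio stayed between 1.15 and 1.25 at every score from 3 to 9. Weak peaks in coding sequences had ratios of 1.30 and 1.12, close to those inside 3'UTRs. When every score was multiplied so that the lists had the FL total, the ΔCTR ratio turned to 0.523. There a score of 3 became 2.60, and all ΔCTR peaks at 3 dropped out. The ΔNTR ratio was 1.32. In ΔNTR a score of 3 became 3.32 and no peak at 3 could drop out, so this scaling does not test the ΔNTR surplus. The depth of the iCLIP libraries is unknown here, and its part in these counts was not tested.

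**Figure D1:**
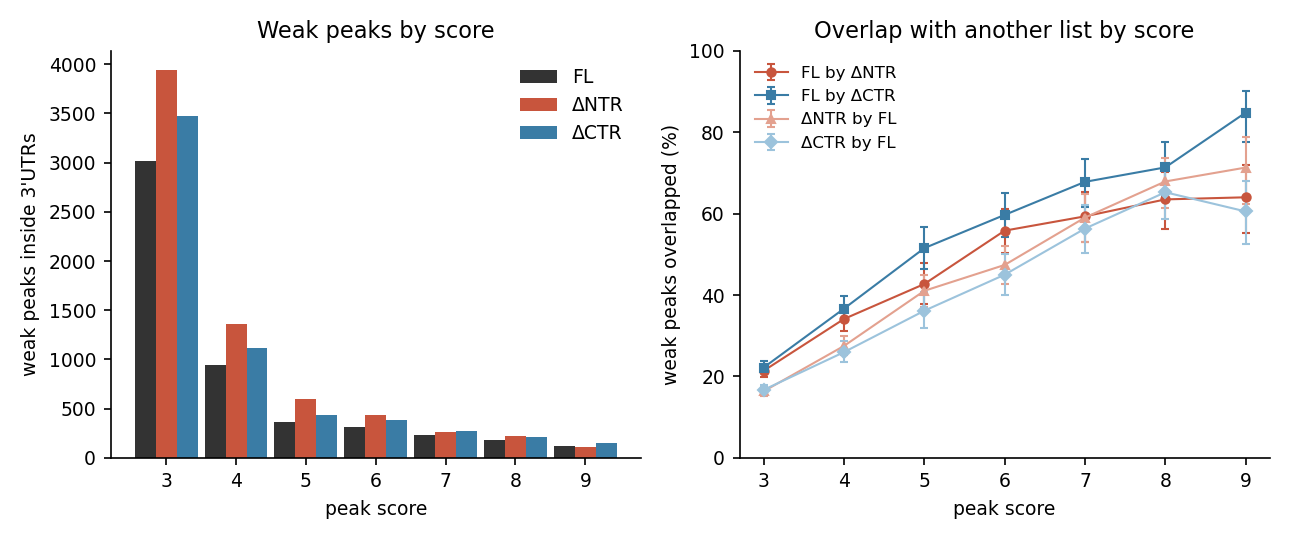
Left, number of weak peaks inside 3'UTRs at each peak score from 3 to 9 in the FL, ΔNTR and ΔCTR lists. Right, share of weak peaks overlapped by at least 1 nt by any peak of the second list named, with Wilson 95% intervals. Most weak peaks have a score of 3, and the share overlapped is lowest there, 21.4% for FL by ΔNTR against 64.0% at a score of 9.

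A minority of weak peaks lay at the same position in another list. Of FL weak peaks, 1629 (31.5%, Wilson 30.2 to 32.7) were overlapped by a ΔNTR peak of any score and 1781 (34.4%, 33.1 to 35.7) by a ΔCTR peak. Over all peaks of the FL list these shares were 35.3% and 37.9%. Of ΔNTR weak peaks, 26.8% were overlapped by FL (30.1% over the list) and 29.5% by ΔCTR (31.8%). Of ΔCTR weak peaks, 26.2% were overlapped by FL (34.4%) and 27.6% by ΔNTR (34%). All 6 shares were below those of their whole list. They were 2.06 to 2.70 times the share of positions in the same 3'UTRs at which a peak of that width would meet the other list, 10.1 to 15.3%. Strong peaks inside 3'UTRs were overlapped in 83.8 to 94.7% of cases, and weak peaks in coding sequences in 24.3 to 29.7%.

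Overlap followed the score closely. FL weak peaks at a score of 3 were overlapped by ΔNTR in 21.4% of cases and by ΔCTR in 22.2%. At a score of 5 the shares were 42.7% and 51.5%, and at 9 they were 64.0% and 84.8%. When a partner was found it was itself mostly weak. For FL by ΔNTR, 240 of 1629 partners (14.7%) were strong, and for ΔNTR by FL 464 of 1859 (24.96%).

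Most weak peaks overlapped neither other list, as did most of all peaks of each list. Overlap with neither held for 2730 FL peaks (52.7%), 4208 ΔNTR peaks (60.7%) and 3654 ΔCTR peaks (60.3%), against 51.6%, 59.3% and 54.3% over all peaks of the lists. Among strong peaks it held for 1.20%, 3.97% and 3.92%. Peaks with a score of 3 made up 73.7% of these private FL peaks, 68.5% of the ΔNTR ones and 68.4% of the ΔCTR ones. Joined across lists, the weak peaks formed 14415 sites, of which 592 (4.11%) had a weak peak of all 3 lists. At 404 of them exactly 1 peak of each list overlapped the other two, with mean scores of 4.73 ± 1.89 for FL, 4.58 ± 1.67 for ΔNTR and 4.86 ± 1.92 for ΔCTR (SD across sites). ΔNTR was above FL at 156 of these sites, below at 160 and equal at 88. ΔCTR was above FL at 160, below at 152 and equal at 92. Between FL and the variants the scores at these sites had a Spearman's rho of 0.11, across sites that were selected on a narrow range of scores.

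Almost none of the weak peaks were met by the lists of the variants without a La-module. ΔLa-module peaks overlapped 12 FL weak peaks (0.232%, against 1.08% over all FL peaks), 19 of ΔNTR (0.274%, against 0.995%) and 16 of ΔCTR (0.264%, against 1.01%). ΔNTD peaks overlapped 8 (0.155%, against 0.502%), 5 (0.0721%, against 0.419%) and 7 (0.116%, against 0.447%). These lists hold 636 and 291 peaks in all, and each share was at most 1.59 times that of the positions of the same 3'UTRs.

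The same mRNAs recurred more often than the same positions, an order that the measure favours, since peaks that overlap also share their 3'UTR. Of the 11121 genes with at least 10 PE150 counts in the FL, ΔNTR and ΔCTR lines, 20.6% had an FL weak peak, 22.8% a ΔNTR one and 23.6% a ΔCTR one. Among the 2298 3'UTRs with an FL weak peak, 67.1% also had a ΔNTR weak peak and 67.9% a ΔCTR one. Read the other way, 60.8% of 2534 ΔNTR and 59.3% of 2631 ΔCTR 3'UTRs had an FL weak peak. Of 3931 3'UTRs with a weak peak in any list, 1229 (31.3%) had one in each.

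Many 3'UTRs held several weak peaks. Mean numbers per 3'UTR were 2.25 in FL, 2.74 in ΔNTR and 2.30 in ΔCTR. There were 222 3'UTRs with 5 or more weak peaks in FL, 406 in ΔNTR and 295 in ΔCTR, which held 33.5%, 50.1% and 36.9% of the weak peaks. Those with 10 or more numbered 50, 119 and 54. The number of 3'UTRs with a single weak peak was 1209, 1282 and 1389. These classes are set by each list's own number, so a list with more peaks has more 3'UTRs in the upper ones.

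HIPK2, a serine/threonine kinase of the nucleus, had the most weak peaks in every list: 34 in FL, 52 in ΔNTR and 28 in ΔCTR over a 3'UTR of 11357 nt. Its FL peaks were spread from 244 to 11161 nt after the stop codon and scored at most 6. Of the 52 ΔNTR peaks, 17 were overlapped by FL and 32 by neither other list. MAP1B, a microtubule-associated protein, had 24, 36 and 20 weak peaks. CCND1, the cyclin D1 of the G1 phase, had 24, 24 and 15, and 17 of its 24 FL peaks were overlapped by ΔNTR. DCBLD2, a transmembrane receptor-like protein, had 22, 23 and 24. These 3'UTRs also held strong peaks, 10 each in FL for CCND1 and DCBLD2 and 4 for HIPK2. CD44 had 17, 23 and 15 weak beside 18, 16 and 17 strong peaks. ACTB, the β-actin gene, was at 6572 CPM in the PE150 library of the FL line (CPM, counts scaled to library size) and had no weak peak inside its 3'UTR of 600 nt in any list.

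Genes were next ranked by the difference in number between FL and ΔNTR. The largest surpluses in ΔNTR after HIPK2 were in MLEC, an endoplasmic reticulum lectin (17 to 33), NUCKS1, a chromatin-associated protein (12 to 28), NAA50, an N-terminal acetyltransferase (3 to 17), and STC1, the secreted stanniocalcin (8 to 22). MAP1B, TXLNA (3 to 15) and PTPN11, the phosphatase SHP2 (7 to 18), followed. Ties were ordered by the difference in summed score, and NCS1 (3 to 14) and CA12 (4 to 15) had the same surplus as PTPN11. The 17 ΔNTR peaks of NAA50 lay 205 to 2387 nt after the stop codon in a 3'UTR of 5302 nt, and 14 overlapped neither other list. In the opposite direction were CAVIN1, a caveolar coat protein (16 to 9), AAK1, a kinase of clathrin adaptors (11 to 5), EHD1, a protein of endosomal recycling (7 to 1), RTN3, a reticulon (6 to 1), MAPKAPK2 (10 to 5), HIPK1 (7 to 2) and the peptide hormone gene APLN (9 to 4). Lower numbers did not mark weaker scores in all of these, since the 5 weak ΔNTR peaks of MAPKAPK2 had a median score of 7 against 4 for its 10 FL peaks.

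For ΔCTR the largest surplus was in FAM168B (7 to 17) and in ATP2A2, the calcium pump SERCA2 (0 to 10). The 10 ΔCTR peaks of ATP2A2 lay 192 to 4503 nt after the stop codon, scored 3 to 6 and overlapped no peak of FL or ΔNTR, and the 4 ΔNTR weak peaks there overlapped none of ΔCTR. EDIL3 (4 to 12), the BMP antagonist GREM1 (4 to 12), the metalloproteinase ADAM12 (6 to 13), APP (5 to 12), the splicing regulator MBNL1 (4 to 11) and UHMK1 (10 to 17) followed. Fewer weak peaks than in FL were found in CALU, a calcium-binding protein of the secretory pathway (21 to 11), CCND1 (24 to 15), MAPKAPK2 (10 to 3), the EGFR inhibitor ERRFI1 (11 to 5), the metalloproteinase MMP14 (11 to 5), AAK1 (11 to 5) and HIPK2. Several genes not named had the same difference as the last of these. A lower number went with more strong peaks in CALU, 6 in FL and 13 in ΔCTR. These genes were chosen for the size of the difference, which is therefore a description.

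**Figure D2:**
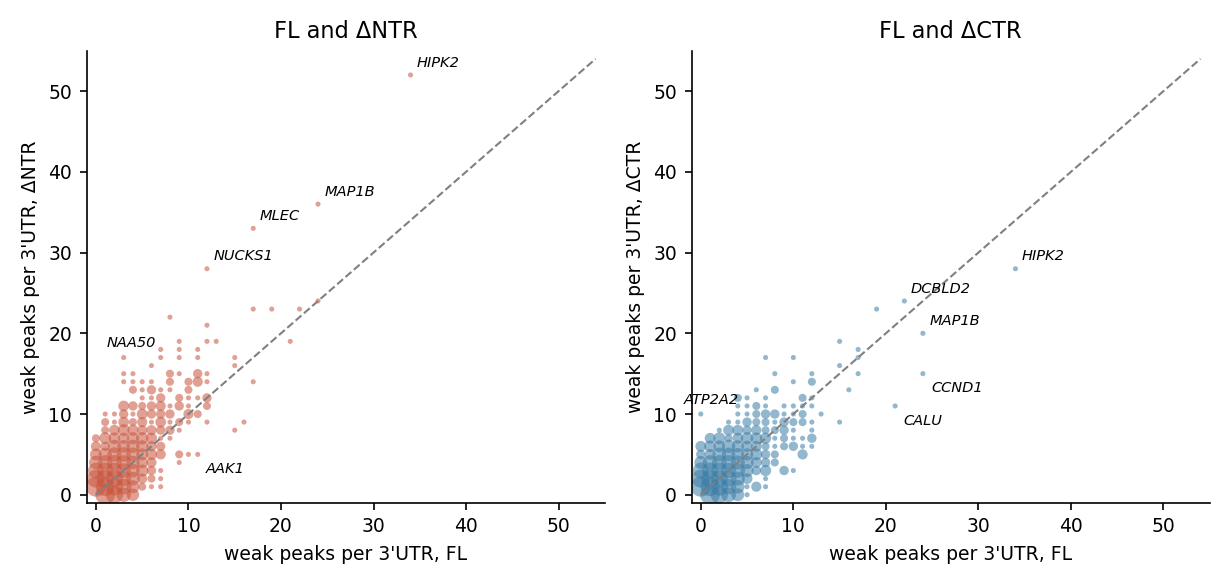
Number of weak peaks per 3'UTR in FL (x axis) against ΔNTR (left) and ΔCTR (right), for 3'UTRs with at least 1 weak peak in either list; larger points stand for more genes and the dashed line marks equal numbers. 3'UTRs with many weak peaks lie mostly above the line for ΔNTR, as HIPK2 with 34 in FL and 52 in ΔNTR, and on both sides of it for ΔCTR.

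Every gene list examined except the cytosolic ribosomal proteins had a higher share of 3'UTRs with an FL weak peak than the 20.6% over all tested genes, and all were of more abundant mRNAs by their median. Among all tested genes with an FL input of 300 CPM or more, the share was 70.8%. Of the lists with a median input at that level, only integrins and cell adhesion proteins, at 73.7%, had a higher share. They had a weak peak in 14 of 19 genes in FL, with 66 weak peaks, and in 15 of 19 in both variants, with 96 in ΔNTR and 67 in ΔCTR. CD44, the integrin ITGA3 (11, 15 and 10), vinculin (VCL, 10, 10 and 9), paxillin (PXN, 5, 10 and 5) and neuropilin-1 (NRP1, 5, 9 and 8) were among them. Matrix glycoproteins and proteases had one in 12 of 18 genes in FL and 15 of 18 in ΔNTR and ΔCTR, among them lysyl oxidase (LOX) with 5, 14 and 9. The LOX input was 0.82 higher in the ΔNTR line than in FL on the log2(CPM + 1) scale. The median number per gene was 2 in both lists in FL, against 0 over all tested genes, and their median FL input was 451 and 607 CPM against 32.8.

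Cytoskeletal mRNAs held 4.19 FL weak peaks per kb in the list of intermediate filaments and tubulins, of which MAP1B gave 24 of 43, and 1.41 per kb in the actin list, led by the tropomyosin TPM4 (10, 13 and 6) and the myosin MYH9 (7, 12 and 9). The rate over all tested genes was 0.226 per kb. It was 0.434 for genes of 100 to 300 CPM and 1.54 from 300 CPM, and the median FL inputs of these lists were 568 and 590 CPM. Vesicle trafficking genes had 70, 98 and 74 weak peaks in 14, 16 and 13 of 26 genes, with the translocon subunit SEC61A1 at 12, 19 and 15. Endoplasmic reticulum chaperones had 30, 44 and 39, of which calnexin (CANX) gave 17, 14 and 18. Genes for signalling and transcription in glioma had 92, 136 and 108 in 18, 19 and 22 of 26 genes, including NOTCH2 (15, 17 and 19), the receptor kinase AXL (11, 14 and 10) and EGFR (4, 8 and 8).

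Lists of RNA-binding proteins were less dense than those above. hnRNP genes had 0.685 FL weak peaks per kb, SR splicing factors 0.441 and other 3'UTR-binding proteins 0.480. Their median FL inputs were 277, 154 and 173 CPM, and all tested genes of 100 to 300 CPM had 0.434 per kb. G3BP1 (10, 13 and 11) and ZFP36L1 (10, 11 and 10) were the highest of the last list. Of the LARP family, LARP1 had 5, 12 and 4 weak peaks and LARP6 none in any list.

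The type I collagen mRNAs had 2, 0 and 1 weak peaks inside the 3'UTR of COL1A1 and 0, 1 and 0 in COL1A2, at 730 and 681 CPM. In FL this was 1.67 and 0 per kb, where all tested genes from 300 CPM had 1.54. The collagen list as a whole had a weak FL peak in 5 of 12 genes and 0.941 per kb, above the 0.226 over all tested genes. COL6A1 had 3, 10 and 6. Cytosolic ribosomal protein genes had a weak FL peak in 1 of the 12 genes whose 3'UTR was long enough to be tested, RPL15 with 3, 3 and 4. The median input of these genes was 507 CPM, a count over whole genes. Their canonical 3'UTRs include RPL37 at 7242 nt and RPL28 at 3753 nt, and whether these were expressed at that length was not tested. In the abundance class of 300 CPM or more, 70.8% of all tested genes had a weak FL peak. Translation factors had one in 10 of 16 genes, led by EIF5 (8, 14 and 10), and glycolytic enzymes in 7 of 15.

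The number of weak peaks was related to mRNA abundance. Across the 11121 tested genes, weak peaks per kb of 3'UTR interior and PE150 CPM of the same line had a Spearman's rho of 0.469 in FL, 0.503 in ΔNTR and 0.494 in ΔCTR. This is a correlation across genes of 1 library, many of them with no peak. In FL the share of genes with a weak peak was 0.394% below 3 CPM, 7.82% from 10 to 30, 23.4% from 30 to 100, 51.0% from 100 to 300 and 70.8% from 300. The rate in the highest class was 1.54 per kb.

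Set against FL in the same genes, the ΔNTR surplus was found at high abundance. Below 30 CPM the ratio of ΔNTR to FL could not be told from 1, at 0.829 (0.510 to 1.34) from 3 to 10 CPM and 1.08 (0.906 to 1.28) from 10 to 30. It was 1.20 (1.11 to 1.29) from 30 to 100 CPM, 1.42 (1.34 to 1.501) from 100 to 300 and 1.42 (1.33 to 1.51) from 300. Strong peaks had ΔNTR to FL ratios of 0.348, 0.621 and 1.07 in these last 3 classes. ΔCTR weak peaks had ratios of 1.21 (1.12 to 1.30), 1.22 (1.15 to 1.29) and 1.08 (1.01 to 1.16). By 3'UTR length the ΔNTR ratio was even, 1.34, 1.34 and 1.35 below 1500 nt, up to 3500 nt and beyond, whereas the ΔCTR ratio was 1.09 (1.01 to 1.18), 1.13 (1.06 to 1.19) and 1.27 (1.20 to 1.35).

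**Figure D3:**
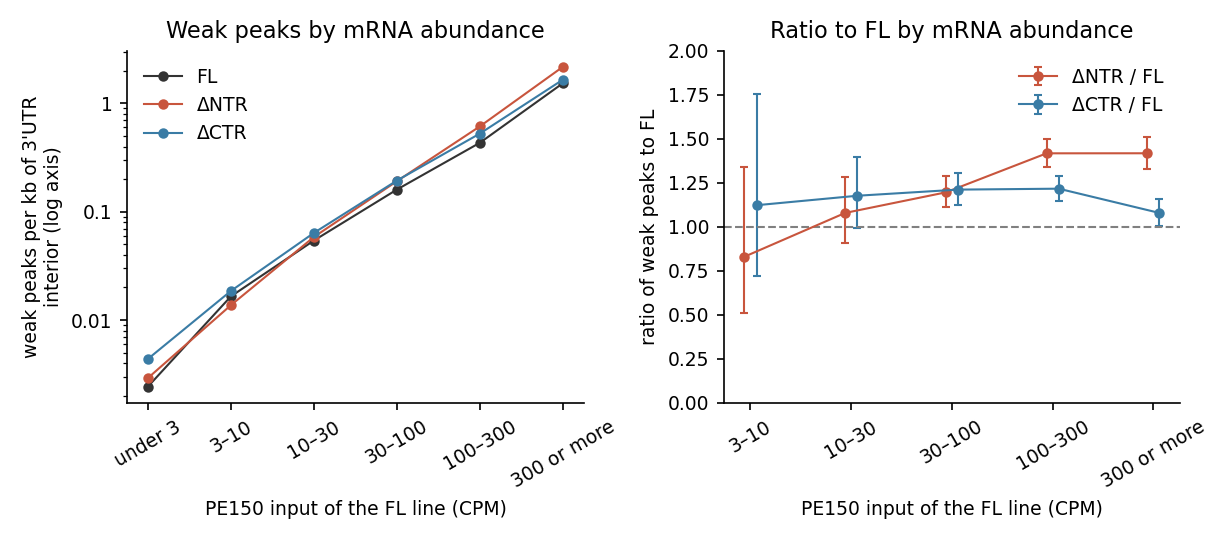
Left, weak peaks per kb of 3'UTR interior (log axis) in the 3 lists by PE150 input of the FL line in CPM. Right, ratio of the number of weak peaks to FL in the same genes, with exact binomial 95% intervals; the class under 3 CPM, with 5 FL peaks, is left out. The ΔNTR ratio is 1.42 in both classes from 100 CPM and near 1 in the classes below 30 CPM, while the ΔCTR ratio is 1.08 in the highest class.

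By their median, input levels hardly differed for the genes concerned. Genes with more ΔNTR than FL weak peaks had a median difference in input, ΔNTR minus FL, of 0.0017 in log2(CPM + 1), against -0.013 over all tested genes. Of these 1673 genes, 7 were at least 2-fold higher in ΔNTR, a higher share than the 22 of 11121 (0.198%) over all tested genes. None of the 1673 was 2-fold lower, and 0% of all tested genes were. For ΔCTR the median was 0.0030 against -0.0022, and 0% of tested genes differed 2-fold in either direction. Among the named genes STC1 was 0.46 higher in the ΔNTR line on this scale and ERRFI1 0.60 and APLN 0.66, though APLN had fewer weak peaks there. Each line has 1 PE150 library, so these differences have no replicate check. The libraries had the character of the line, with VIM at 7039 to 8004, FN1 at 4372 to 5679 and CD44 at 2083 to 2336 CPM, whereas the glial markers GFAP, SOX2, S100B and AQP4 were at or near 0 and SNAP25, a neuronal marker, was at 57.9 to 65.7 CPM.

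Weak peaks were denser after the stop codon than toward the 3' end of the annotated 3'UTR. In FL, 26.6% of them (25.4 to 27.8) lay in the 20% of the 3'UTR interior nearest the stop codon and 14.1% (13.2 to 15.1) in the 20% nearest the 3' end, where an even spread would give 20%. ΔNTR had 28.0% and 13.9%, and ΔCTR 26.0% and 14.5%. Strong peaks were spread in the same way, with 26.3%, 27.9% and 28.0% nearest the stop codon. The gradient was steeper in longer annotated 3'UTRs, and whether these were expressed at their full length was not tested. The stop codon end held 1.33 times as many FL weak peaks as the 3' end below 1500 nt, 1.77 times from 1500 to under 3500 nt and 2.47 times from 3500 nt. In ΔCTR these ratios were 1.14, 1.77 and 2.27, and in ΔNTR 1.36, 1.81 and 2.81. AAK1 ran against the gradient, with all its weak peaks in the 3 lists 9607 nt or more after the stop codon of a 3'UTR of 17872 nt.

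Another peak of the same list lay within 100 nt of 40.5% of them in FL, 46.5% in ΔNTR and 41.0% in ΔCTR, with median gaps to the nearest of 98, 77 and 95 nt. A strong peak of the same list lay within 100 nt of 12.2%, 10.2% and 12.1%, against 8.50%, 7.74% and 8.38% for all positions of the same 3'UTRs. In all, 37.2% of FL, 31.9% of ΔNTR and 38.7% of ΔCTR weak peaks shared their 3'UTR interior with a strong peak of the same list.

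Of the 5078 ΔNTR weak peaks that overlapped no FL peak, 1620 (31.9%, 30.6 to 33.2) lay within 100 nt of one. Those of CTNNA1, a chosen example, did too. The share was 23.6% over all peaks of the ΔNTR list without an FL overlap, and 23.3% for the free positions of the same 3'UTRs. In ΔCTR it was 1276 of 4470 (28.5%, 27.2 to 29.9), against 21.6% over the list and 19.4% for free positions. The shares were 1.37 and 1.47 times those of an even spread over the same 3'UTRs. A further 1150 ΔNTR and 1267 ΔCTR weak peaks were in 3'UTRs without any FL peak.

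The sequence around weak peaks differed from the rest of the same 3'UTRs in a fixed order along the RNA. From 10 nt before to 3 nt after the centre, uridine was 3.92 percentage points above its share in the same 3'UTR interiors for FL (SE 0.22 over genes), 3.63 (0.18) for ΔNTR and 3.80 (0.19) for ΔCTR. Guanosine differed from it by -2.58, -2.37 and -2.20 points. From 5 to 30 nt 3′ of the centre, uridine differed by -0.27, -0.36 and -0.32 points and adenosine by -2.54 (0.14), -2.55 (0.13) and -2.16 (0.12). There cytidine was 1.48 (0.15), 1.86 (0.13) and 0.63 (0.13) points above, and guanosine 1.33 (0.15), 1.06 (0.13) and 1.84 (0.12). Beyond 50 nt from the centre, mean differences ran from -0.20 to 0.26 points.

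Downstream of the centre cytidine and guanosine were in excess in every list, and the variants differed from FL in the amounts. Cytidine in ΔCTR differed from FL by -0.85 points (95% interval -1.22 to -0.48), guanosine by 0.51 (0.17 to 0.86) and adenosine by 0.38 (0.04 to 0.72). Cytidine in ΔNTR was 0.38 points higher than in FL (0.01 to 0.75), and guanosine was not resolved from it (-0.62 to 0.07). At the centre no nucleoside differed from FL beyond its interval, that of uridine running from -0.82 to 0.23 in ΔNTR and from -0.67 to 0.43 in ΔCTR. Of 16 such differences, 4 had an interval without 0; these intervals cover the spread over genes, not between cultures. In strong FL peaks the downstream excess was of guanosine, 2.68 points (0.32), with cytidine at -0.02 (0.33). Strong ΔCTR peaks had 2.67 (0.26) and 0.01 (0.28), and strong ΔNTR peaks 1.03 (0.37) and 1.59 (0.40).

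**Figure D4:**
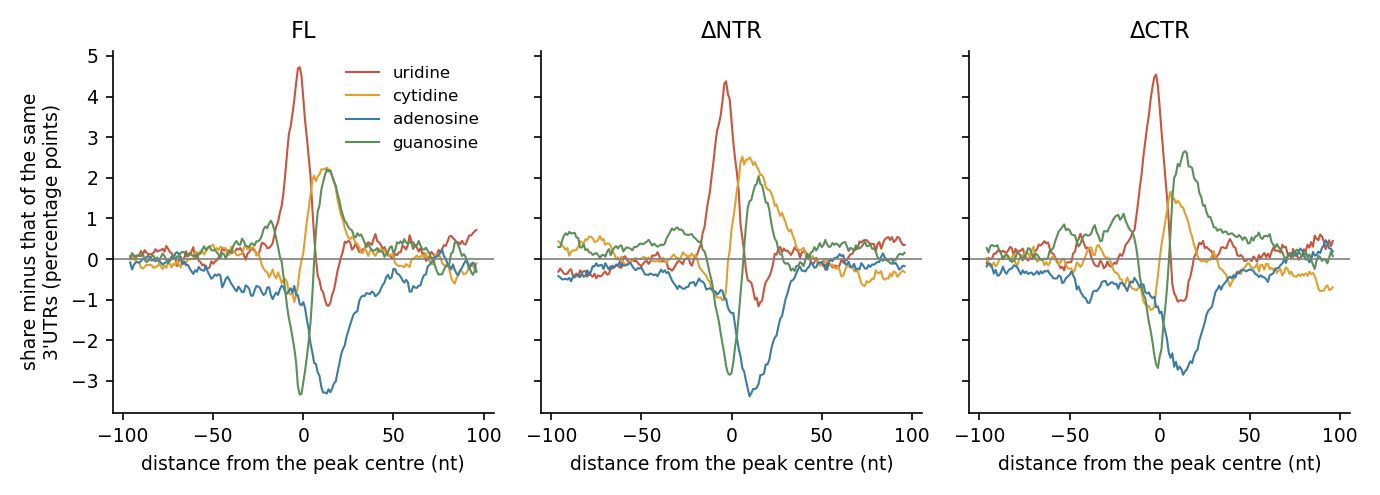
Share of each nucleoside around the centres of weak peaks minus its share in the interiors of the same 3'UTRs, in percentage points, as means of 9 nt, by distance from the centre (negative, 5′) in FL, ΔNTR and ΔCTR. Uridine is highest 2 to 3 nt before the centre, 4.38 to 4.72 points above the reference, and cytidine and guanosine are in excess after it where adenosine is lowest.

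Over the 31 nt around the centre, cytidine and uridine together were 54.2%, 54.3% and 53.5% in the 3 lists, 2.29 (SE 0.17), 2.39 (0.15) and 1.69 (0.15) points above the same 3'UTRs. The difference is an average over many sites, since 57.3%, 57.8% and 56.1% of windows were above their own 3'UTR. Private weak peaks had it too. In FL it was 2.29 points for private weak peaks and 2.29 for those overlapping another list, in ΔNTR 2.64 and 2.02, and in ΔCTR 1.35 and 2.21.

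Counts of each 5-mer in these windows were compared with the interiors of the same 3'UTRs. The 32 words of C and T alone had a median log2 enrichment of 0.28 for FL, 0.32 for ΔNTR and 0.15 for ΔCTR. Of these words 8, 9 and 2 were among the 20 highest. The highest words were TTGCT in FL (304 counts against 225 expected), TCCGT in ΔNTR (82 against 51.8) and TAGCC in ΔCTR (154 against 106). Only words with at least 50 expected counts were ranked, a limit that TCCGT passed in ΔNTR alone. Its log2 values were 0.41 in FL, 0.65 in ΔNTR and 0.25 in ΔCTR. All ranked enrichments were small, with a largest log2 value of 0.65. TTTCT, on the sense strand only, was in 10.3% of FL, 10.4% of ΔNTR and 10.4% of ΔCTR windows, and in 8.47%, 8.35% and 8.64% of all windows of that length in the same 3'UTRs. TTTTT, which can overlap it, was in 11.9%, 11.1% and 11.3% against 10.1%, 9.86% and 10.4%. The letters ATTTA of AU-rich elements were in 5.47%, 5.23% and 5.50% against 5.13%, 5.05% and 5.45%, and the Pumilio motif letters TGTANATA in 0.425%, 0.519% and 0.479% against 0.457%, 0.453% and 0.497%. The polyadenylation signal letters AATAAA were less frequent than in the same 3'UTRs, in 0.927%, 1.11% and 1.16% against 1.64%, 1.62% and 1.78%.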

How the data were processed

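As described by the authors, iCLIP libraries were split by barcode (Ultraplex) and trimmed (TrimGalore). The authors removed rRNA and tRNA reads with Bowtie 2, mapped the rest with STAR to GRCh38 with GENCODE annotation, collapsed duplicates with UMI-tools and called peaks in each replicate with Clippy. They merged the replicates, summed the peak scores and removed parental peaks with bedtools 2.30.0. The deposited score is a whole number that was not scaled to depth, and each list pools its 3 replicates. The deposited input counts per gene came from STAR 2.7.10b after Trim Galore 0.6.10, and the column of the strand with at least 4 times the other's total was used (reverse for PE150, forward for SE50, the small RNA libraries). PE150 totals were 25027075 to 28692476 counts and SE50 totals 6181270 to 10307756. Several input labels name a variant without "delta" and were read as the deletion.

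Peaks were placed on GENCODE release 44 canonical transcripts of GRCh38 by their centre, with a minimum overlap of 1 nt between lists. The reference for overlap, distance and sequence was every admitted position of the same annotated 3'UTR, computed exactly. Whether each 3'UTR was expressed at that length was not tested. Standard errors allow for peaks of 1 gene being alike. CPM used edgeR 4.0.16 TMM factors, with a pseudocount of 1 and a minimum of 10 counts. Shares have Wilson intervals and ratios exact binomial intervals of 95%, which cover counting error only. No test was possible without replicates. Scripts (Python 3.11.15, numpy 2.4.6, scipy 1.17.1) were tested on simulated data. Named genes were the 10 3'UTRs with the most weak peaks in each list, the 8 with the largest surplus and deficit against FL, 4 examples and the genes of 15 lists, and sequences were taken in order of score, then symbol. A gene that the rule names is not reported here. Members and lists were chosen with earlier results of these data known. The alternatives are given in the closing section.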

Additional observations from a re-analysis of the deposited data

Results flagged for a closer look

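Peaks that met the same score and position limits were also found in the lists of the variants that lack the La-module, which the comparisons above do not use. There were 126 in ΔLa-module and 62 in ΔNTD, against 5177 in FL. They are listed because peaks were present at all, and the counts do not show whether these peaks are background. A score of 3 was held by 81.0% and 90.3% of them. In ΔLa-module 44 of 126 (34.9%, Wilson 27.2 to 43.6) overlapped a peak of FL, ΔNTR or ΔCTR, where 35.5% of all peaks of that list did, and in ΔNTD 19 of 62 (30.6%, 20.6 to 43.0), where 30.6% did. They lay in 3'UTRs with a weak peak of the 3 lists in 81.7% and 87.1% of cases. Cytidine and uridine together were 5.11 points (SE 1.08) and 1.07 points (SE 1.53) above the same 3'UTRs. Their origin was not tested.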

How the results depend on the processing

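Of 97 values recomputed under an alternative for 27 results, 38 were classed as the same, 58 as moved and 1 turned direction. Where the main value had an interval, the same meant inside that interval. Numbers of weak peaks had no interval and were held to a limit wider than counting error. The FL number, 5177 in the main setting and 5700 for scores of 3 to 19, was classed as the same. The value that turned direction was the ratio of ΔCTR to FL, 0.523 with scores scaled to the FL total. There 2705 ΔCTR peaks were counted, since the scaled score of 3 fell under the lowest score admitted. Scores of 4 to 9 gave 2156, 2997 and 2585 weak peaks and a ΔNTR ratio of 1.39. In the order FL by ΔNTR, FL by ΔCTR, ΔNTR by FL, ΔNTR by ΔCTR, ΔCTR by FL and ΔCTR by ΔNTR, the share overlapped was 19.5%, 22.2%, 16.98%, 18.2%, 16.7% and 16.5% where 50% of both peaks had to overlap. It was 38.4%, 40.7%, 32.8%, 36.0%, 31.7% and 33.9% within 15 nt. It was 45.6%, 51.5%, 40.5%, 43.3%, 39.0% and 39.2% for scores of 4 to 9, and 36.4%, 39.6%, 30.8%, 33.3%, 32.0% and 32.4% for scores of 3 to 19. With partners of a score of 4 or more it was 21.9%, 25.3%, 18.8%, 21.4%, 17.5% and 18.3%. The share beside an FL peak was 21.1% for ΔNTR and 19.8% for ΔCTR within 50 nt, 44.5% and 38.5% within 200 nt, and 40.6% and 34.6% for scores of 4 to 9. The excess of cytidine plus uridine was 2.93, 2.98 and 2.21 points over the peak itself and 1.46, 1.55 and 0.835 over 61 nt, and for scores of 4 to 9 it was 2.68 in FL and 2.68 in ΔNTR. Counting strong peaks from a score of 20 gave 23.4%, 14.9% and 24.7% of weak peaks in a 3'UTR with a strong peak. The rho with input was 0.115, 0.116 and 0.156 for counts of the SE50 small RNA libraries. These cover 899 genes, against 11121 in the main setting. It was 0.447, 0.482 and 0.468 for the 9524 genes with at least 100 PE150 counts. The cause was not tested for any of these shifts. No paired analysis was possible because each list pools its replicates, which also left no replicate to leave out. Leaving out repeats was not run, since the reference used here does not mark them. The depth of the iCLIP libraries is unknown here, and what it limits was not tested.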
